A study of Mus musculus with 1 sample.

Results

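The genes described here are Scgb3a1, Cyp2f2, Cbr2 and Aox3, 4 of the 32285 genes counted in 1 single-cell library of mouse gastric organoids. They were chosen by name, with earlier results on the same cells in view in which Scgb3a1 and Aox3 led a cluster. Their levels between clusters and their sharing of cells are therefore a description and carry no test. Organoids are epithelial cultures that grow as hollow spheres in a gel. The library came from stomach organoids of wild type genotype with no treatment, harvested on day 7 and dissociated with 0.05% trypsin-EDTA for 30 min at 37 °C. Strain, age and the number of animals are not given in the sources used here, and the other genotypes that the series names were not analysed here. With 1 library there is no replicate and no test between groups, so every interval below is a 95% interval of counting error alone, which is narrower than the spread between cells.

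Secretoglobins are small secreted proteins made by mucosal epithelia, and Scgb3a1 is known from the secretory cells of the airway. Cyp2f2 is a cytochrome P450 of the endoplasmic reticulum that oxidises small aromatic compounds such as naphthalene, and in mouse lung it is a standard marker of club cells, the secretory cells of the bronchioles. Cbr2 is a carbonyl reductase best known from lung, where it reduces aldehydes and ketones. Aox3 is an aldehyde oxidase, a molybdenum-containing enzyme that oxidises aldehydes and nitrogen heterocycles. All of these enzymes belong to the first phase of the metabolism of foreign compounds, in which a reactive group is added or exposed before conjugation.

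The 4 genes lie on 3 chromosomes. On GRCm38, Scgb3a1 (ENSMUSG00000064057) is at chr11:49663610-49665118 on the plus strand and Cbr2 (ENSMUSG00000025150) at chr11:120729489-120732114 on the minus strand. Cyp2f2 (ENSMUSG00000052974) is at chr7:27119909-27133660 and Aox3 (ENSMUSG00000064294) at chr1:58113130-58200698, both on the plus strand. All are annotated as protein-coding, with up to 4 exons in Scgb3a1, 10 in Cyp2f2, 8 in Cbr2 and 35 in Aox3. The counts cover whole genes and do not resolve exons or alleles.

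The promoters are shown because the levels of these genes moved together across cells, so that the sequences around their start sites can be set side by side. Each window runs from 250 bases before the RefSeq start site to 50 bases after it, on GRCm38.p6, in the direction of the gene. All 4 genes were matched in the RefSeq promoter table. Capitals mark matches to any of 7 searched motifs on either strand, namely TATAAA (the TATA box), CCAAT (the box of that name), GGGCGG (the GC box), TGTTTNC (forkhead factors), TGANTCA (AP-1), TTGCNNAA (C/EBP factors) and CAAGTG (NKX2 homeobox factors).
Scgb3a1, chr11:49663345-49663644, plus strand: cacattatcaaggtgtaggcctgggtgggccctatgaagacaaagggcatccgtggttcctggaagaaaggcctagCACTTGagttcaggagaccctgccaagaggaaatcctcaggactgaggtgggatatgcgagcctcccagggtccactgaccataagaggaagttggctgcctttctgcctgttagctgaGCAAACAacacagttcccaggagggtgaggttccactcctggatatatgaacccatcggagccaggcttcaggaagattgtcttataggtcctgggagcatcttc
Cyp2f2, chr7:27119705-27120004, plus strand: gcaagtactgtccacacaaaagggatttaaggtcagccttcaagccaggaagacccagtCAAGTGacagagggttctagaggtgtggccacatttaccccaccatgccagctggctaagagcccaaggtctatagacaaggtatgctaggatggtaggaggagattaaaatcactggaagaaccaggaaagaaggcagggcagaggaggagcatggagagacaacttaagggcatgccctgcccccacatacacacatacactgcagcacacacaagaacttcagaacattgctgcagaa
Cbr2, chr11:120731972-120732271, minus strand: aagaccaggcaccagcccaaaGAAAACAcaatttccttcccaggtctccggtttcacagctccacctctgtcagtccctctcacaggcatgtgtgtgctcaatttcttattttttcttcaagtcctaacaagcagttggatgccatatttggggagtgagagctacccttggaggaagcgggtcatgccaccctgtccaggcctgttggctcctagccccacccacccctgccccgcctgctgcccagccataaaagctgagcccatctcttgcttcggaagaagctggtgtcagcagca
Aox3, chr1:58112886-58113185, plus strand: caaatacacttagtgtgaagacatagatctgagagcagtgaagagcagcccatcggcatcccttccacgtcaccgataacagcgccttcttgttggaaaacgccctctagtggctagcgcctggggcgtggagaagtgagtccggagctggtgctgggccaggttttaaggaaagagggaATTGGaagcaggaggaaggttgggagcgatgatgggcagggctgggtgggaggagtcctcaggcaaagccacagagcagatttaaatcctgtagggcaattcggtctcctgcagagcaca

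CAAGTG was the motif that Scgb3a1 and Cyp2f2 shared, at positions -174 and -191 from the start site, and 13.6% of the 32851 promoters in the table hold it. TGTTTNC was found at -55 in Scgb3a1 and at -229 in Cbr2, against 20.5% of promoters. Aox3 held CCAAT on the opposite strand at -70, against 37.4%. The remaining motifs had no match in these windows, where TATAAA is held by 13.6% of promoters, GGGCGG by 35.7%, TGANTCA by 7.81% and TTGCNNAA by 10.8%. No 2 of the matches overlap. No motif was common to all 4 windows, and a match to these letters is a description of the sequence and not a binding site.

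The deposited matrix held 20236916 gene UMIs (unique molecular identifiers, each standing for 1 captured RNA molecule) in 1991 barcodes. The cell filter kept 1892 barcodes with a median of 8513 UMIs (range 890 to 47183). The unit of level is CPM, which scales a gene to 1000000 gene UMIs summed over the cells in question. The kit tags molecules near their 3′ end, so a long transcript is not counted more often than a short one and CPM were compared between genes without division by length. Epithelial identity was measured through Epcam, with a UMI in 96.6% of cells, and Krt8, in 97.9%. Of the defining markers of mature gastric cells, the acid pump subunit Atp4b and the chief cell genes Cblif and Pga5 had no UMI, and the mucous neck mucin Muc6 had 1 UMI. Other genes of these lineages were found, among them Atp4a with 29 UMIs, Pgc with 71, Muc5ac with 114, Tff2 with 355, Gkn3 with 434, Gkn1 with 1425 and Tff1 with 6172.

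Scgb3a1 was among the abundant transcripts of the library, and the other 3 genes lay well below it. It had 33396 UMIs, or 1660 CPM (1642 to 1678), and ranked 117th of all genes. Cyp2f2 had 3033 UMIs, or 151 CPM (145 to 156), and ranked 750th. Cbr2 had 251 UMIs, or 12.5 CPM (11.0 to 14.1). Aox3 had 185 UMIs, or 9.20 CPM (7.92 to 10.6). The intervals of Cbr2 and Aox3 lie apart by a small margin, and those of the other genes by a large one.

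Detection followed the same order. Scgb3a1 had a UMI in 63.7% of cells, Cyp2f2 in 48.0%, Cbr2 in 7.29% and Aox3 in 6.61%. Because such shares grow with depth, each cell was also thinned to 3000 UMIs, which kept 1835 cells and left out 57 shallower ones. At that equal depth, Scgb3a1 was found in 44.7% of cells (42.4% to 47.1%) and Cyp2f2 in 27.3% (25.3% to 29.4%). Cbr2 was found in 2.72% (2.03% to 3.58%) and Aox3 in 2.45% (1.79% to 3.27%), and these 2 intervals overlap.

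Scgb3a1 was spread very unevenly over cells. It had no UMI in 686 cells, 1 UMI in 363, 2 to 4 in 250, 5 to 19 in 235 and 20 or more in 358, with a maximum of 673 in 1 cell. The 358 cells with 20 or more held 89.6% of its UMIs. The 189 cells with the most Scgb3a1, which are 10% of all cells, held 72.8% of its UMIs. Among the 94 other genes within 2-fold of its level, the median share held by the top 10% of cells was 28.1% and 0 genes had a higher share.

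Cyp2f2 was less concentrated. It had 1 UMI in 343 cells, 2 to 4 in 358, 5 to 19 in 202 and 20 or more in 6, with a maximum of 33. Its top 189 cells held 53.5% of its UMIs, against a median of 36.8% for 1050 genes within 2-fold of its level, of which 14 had a higher share. Most cells with Cbr2 or Aox3 had a single UMI, 93 of 138 for Cbr2 and 86 of 125 for Aox3, so single cells cannot be ranked by these 2 genes.

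**Figure D1:**
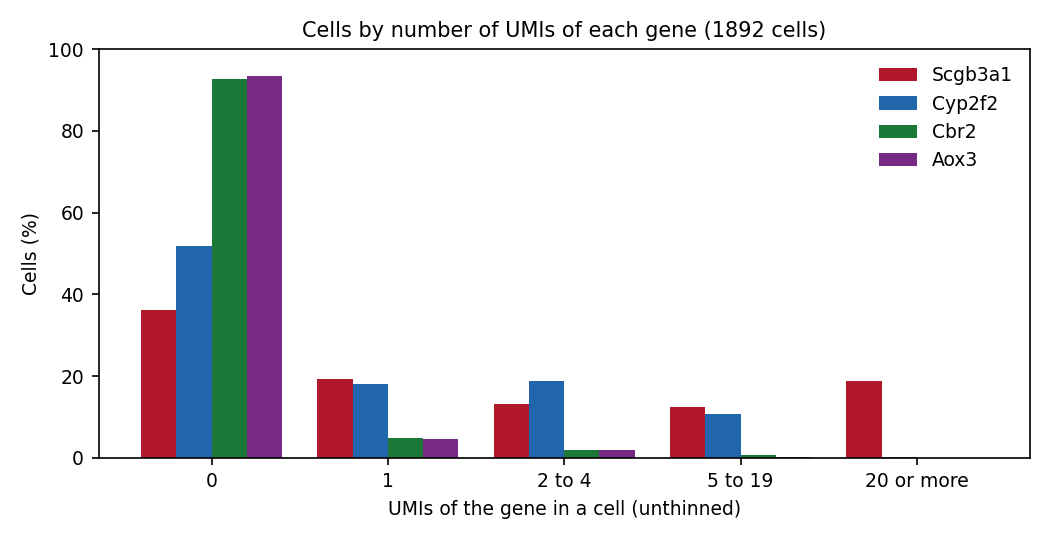
Share of the 1892 cells (y axis, percent) by the number of UMIs of each gene in a cell, without thinning (x axis), with 1 bar per gene. Scgb3a1 has 358 cells with 20 or more UMIs, where Cyp2f2 has 6 and Cbr2 and Aox3 have none.

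Most other members of the same gene families were at or near 0, apart from Cyp2s1 and the carbonyl reductases. Of 34 secretoglobin genes in the matrix, 3 had any UMI, and Scgb3a1 held all but 14 of the 33410 UMIs of the family. Scgb1a1, the main secretoglobin of lung club cells, had 8 UMIs, and Scgb3a2, its airway relative, had none. With the limit of a count of 0 set at 3 counts, no UMI allows up to 0.149 CPM, and a UMI in up to 0.159% of cells, which does not limit the cells that express the gene.

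Cyp2f2 held 80.3% of the UMIs of the 49 genes of cytochrome P450 family Cyp2. Cyp2s1, an extrahepatic P450, followed with 27.5 CPM, and Cyp2b10, another P450 of mouse club cells, had 3.43 CPM. The Cyp2 genes next to Cyp2f2 on chromosome 7, Cyp2a12 on one side and Cyp2t4 on the other, had no UMI. Aox3 lies in a row with its paralogs, 6717 bp from Aox1 and 9699 bp from Aox4, and Aox1 had 11 UMIs, Aox2 had 2 and Aox4 none. Aox3 held 93.4% of the UMIs of that family.

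Cbr2 was a minor carbonyl reductase in these cells. Cbr1, the widely expressed carbonyl reductase, was at 187 CPM, Cbr3 at 61.9 CPM and Cbr4 at 21.5 CPM, so Cbr2 held 4.40% of the family. Dcxr, a related short-chain reductase that reduces dicarbonyls and xylulose, lies 2208 bp from Cbr2 on the same strand and was at 105 CPM. The 2 genes are similar in sequence, so some UMIs could be divided between them by the counting, and Cbr2 counts carry that uncertainty.

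The cells were grouped with the 4 genes left out of the clustering, which gave 6 clusters, numbered by size and left without cell type names. Cluster 1 (560 cells) was led by Cxcl5, Cxcl2 and Nav3. Cluster 2 (481 cells) was led by Aox3 and Scgb3a1 themselves and then by Mmp7. Cluster 3 (397 cells) was led by Ly6m, Sprr1a and Ndrg1, cluster 4 (292 cells) by Mt1, 2610528A11Rik and 5430416N02Rik, and cluster 5 (100 cells) by the mitotic genes Aspm, Knl1 and Dlgap5. Cluster 6 (62 cells), led by Cyba, Reg3g and Gm3776, stands apart, with a UMI of a Y-linked gene in 53.2% of its cells against at most 1.37% in the others. The genes of interest share a library with those that made the clusters, so their levels by cluster are a description.

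The highest level of Scgb3a1 was that of cluster 2, 3313 CPM (3256 to 3371). Cluster 5 followed with 2256 CPM (2178 to 2336) and cluster 1 with 2208 CPM (2173 to 2243), and these 2 did not differ beyond counting error. The other clusters had 417 CPM (cluster 6, 378 to 458), 255 CPM (cluster 3, 241 to 269) and 214 CPM (cluster 4, 193 to 236). Clusters 1, 2 and 5 were thus all above clusters 3, 4 and 6, and the highest of the low group was several-fold below the lowest of the high group. Median depth was 10422, 6925 and 11991 UMIs in clusters 1, 2 and 5, and 11410, 5755 and 14366 in clusters 3, 4 and 6, so depth did not split the same way.

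Cyp2f2 split the clusters in the same way. Its level in cluster 2 was 230 CPM (215 to 245), in cluster 1 216 CPM (205 to 227) and in cluster 5 180 CPM (159 to 204). In cluster 4 the level was 57.8 CPM (47.3 to 69.9), in cluster 3 49.4 CPM (43.5 to 55.9) and in cluster 6 33.6 CPM (23.2 to 46.9). Clusters 1 and 2 did not differ beyond counting error, nor did clusters 3 and 4, nor clusters 3 and 6.

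Cbr2 stood at 19.1 CPM in cluster 1, on 133 UMIs, at 17.6 CPM in cluster 2 (13.7 to 22.4) and at 11.5 CPM in cluster 5 (6.56 to 18.6). In clusters 4, 3 and 6 it was at 4.36, 4.35 and 3.95 CPM, on 8, 22 and 4 UMIs. Within each of these 2 sets of clusters the intervals overlap, and those of clusters 1 and 2 lie above those of clusters 3, 4 and 6.

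In cluster 2 Aox3 stood at 18.4 CPM (14.4 to 23.2). Cluster 1 gave 12.6 CPM (10.1 to 15.6), which overlaps it. Clusters 3 and 4 had 7 and 2 Aox3 UMIs, for levels of 1.38 CPM (0.556 to 2.85) and 1.09 CPM (0.132 to 3.94). In cluster 5 it was at 5.02 CPM (2.02 to 10.4), below clusters 1 and 2 in value, with an interval that overlaps that of cluster 1. Cluster 6 gave 9.87 CPM (4.74 to 18.2) on 10 UMIs, which is where Aox3 departed from the other genes.

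**Figure D2:**
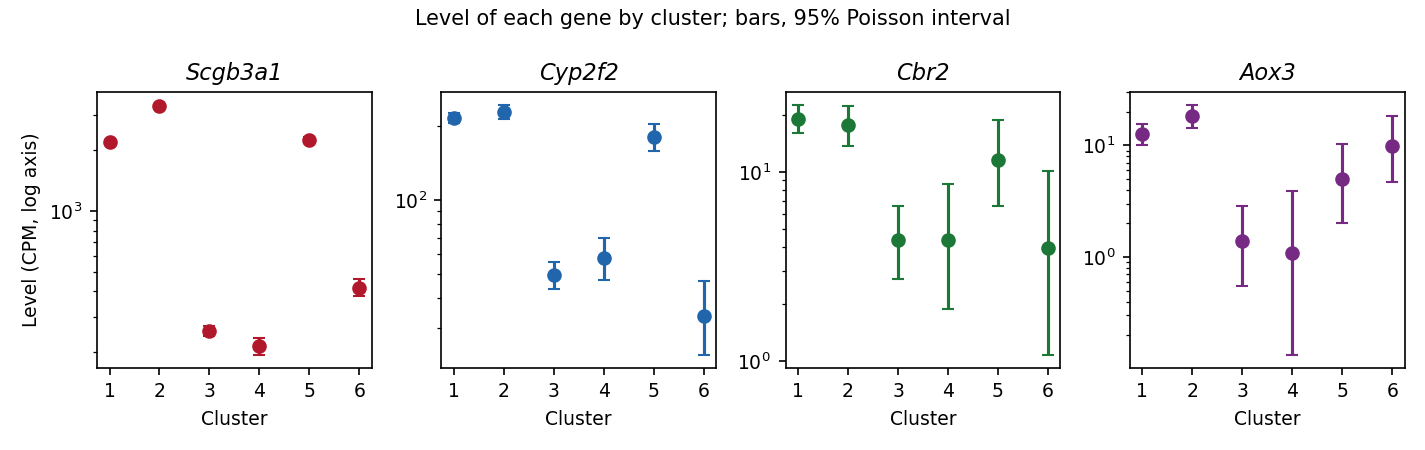
Level of each gene (y axis, CPM on a log axis that differs between panels) in clusters 1 to 6 (x axis), with points for the level and bars for the 95% Poisson interval. Clusters 1, 2 and 5 are above clusters 3 and 4 in every panel, and cluster 6 is low for Scgb3a1, Cyp2f2 and Cbr2 and at 9.87 CPM for Aox3.

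The proportion of Scgb3a1 to Cyp2f2 was not fixed. The level of Scgb3a1 was 14.4 times that of Cyp2f2 in cluster 2, 12.5 times in cluster 5, 12.4 times in cluster 6, 10.2 times in cluster 1, 5.16 times in cluster 3 and 3.70 times in cluster 4. It was 175, 180, 184 and 196 times that of Aox3 in clusters 1 to 4, the last 2 on 7 and 2 Aox3 UMIs. In clusters 5 and 6 it was 449 and 42.2 times that of Aox3, on 7 and 10 Aox3 UMIs. No cell class in the library is known to lack Scgb3a1, and the part of free RNA in these values was not tested.

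The question of how far these genes share cells was addressed at equal depth. Of the 1835 thinned cells, 331 had both Scgb3a1 and Cyp2f2, where 224 would have both if the genes were unrelated, a ratio of 1.48 (1.32 to 1.65). Of the 501 cells with Cyp2f2, 66.1% had Scgb3a1 (61.7% to 70.2%), against 44.7% of all cells. Of the 821 cells with Scgb3a1, 40.3% had Cyp2f2 (36.9% to 43.8%), against 27.3% of all cells. The 2 genes were therefore found together more often than their shares alone would give, while most Scgb3a1 cells had no Cyp2f2 UMI at this depth.

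Most cells with Cbr2 or Aox3 also had Scgb3a1, and fewer had Cyp2f2. Of 50 cells with Cbr2, 34 had Scgb3a1, which is 68.0% (53.3% to 80.5%), and 24 had Cyp2f2, which is 48.0% (33.7% to 62.6%). Of 45 cells with Aox3, 31 had Scgb3a1, which is 68.9% (53.4% to 81.8%), and 20 had Cyp2f2, which is 44.4% (29.6% to 60.0%). The ratio to unrelated genes was 1.52 for Scgb3a1 with Cbr2 (1.05 to 2.12) and 1.54 for Scgb3a1 with Aox3 (1.05 to 2.19). It was 1.76 for Cyp2f2 with Cbr2 (1.13 to 2.62) and 1.63 for Cyp2f2 with Aox3 (0.994 to 2.51), an interval that holds 1.

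Cbr2 and Aox3 were together in 4 cells at 3000 UMIs, a ratio of 3.26 (0.889 to 8.35), which is too few to separate from unrelated genes. Without thinning they were together in 28 cells, where 9.12 would be, a ratio of 3.07 (2.04 to 4.44), but depth differs between those cells. At full depth, 118 of the 125 cells with Aox3 also had Scgb3a1, which is 94.4% (88.8% to 97.7%) against 63.7% of all cells.

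**Figure D3:**
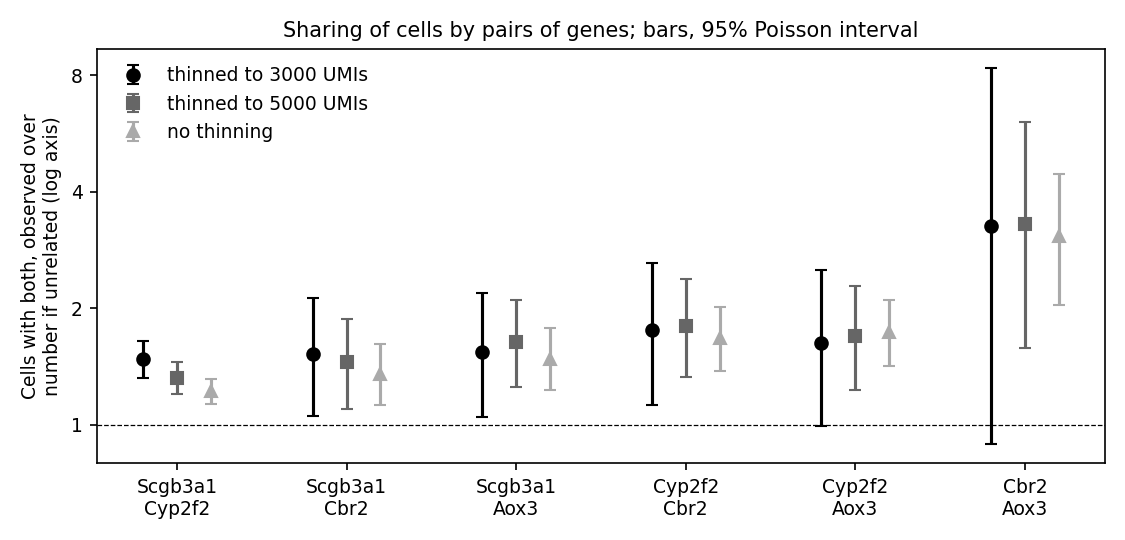
Number of cells with a UMI of both genes, divided by the number if the genes were unrelated (y axis, log axis), for the 6 pairs (x axis) at 3 depths, with bars for the 95% Poisson interval. Every point is above 1, and at 3000 UMIs the intervals of Cyp2f2 with Aox3 and of Cbr2 with Aox3 reach 1.

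Within cluster 1 the ratio of Scgb3a1 with Cyp2f2 was 1.21 (1.03 to 1.42) and within cluster 2 it was 1.33 (1.11 to 1.57). Both intervals overlap that over all cells. In cluster 5 it was 1.02 (0.621 to 1.57), and in clusters 3, 4 and 6 the intervals held 1 on at most 15 cells with both. Counting a cell as positive for Scgb3a1 only from 2 UMIs up gave 1.72 for this pair (1.52 to 1.94). Without the 12 called doublets the ratio was 1.48, the same as with them.

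In all, 827 thinned cells (45.1%) had a UMI of none of the 4 genes, 632 had 1 gene, 345 had 2, 29 had 3 and 2 had all 4. The commonest pair was Scgb3a1 with Cyp2f2 and neither of the others, in 301 cells. Scgb3a1 was found alone in 457 cells and Cyp2f2 alone in 159. All 31 cells with 3 or 4 of the genes were in clusters 1 and 2.

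Cyp2f2 was graded by the Scgb3a1 content of the cell, in level and in detection. In the 1014 cells with no Scgb3a1 UMI after thinning, Cyp2f2 was at 83.7 CPM (78.4 to 89.4). It was at 135 CPM with 1 Scgb3a1 UMI (121 to 149), 169 CPM with 2 to 4 (152 to 188), 274 CPM with 5 to 19 (255 to 294) and 386 CPM with 20 or more (356 to 419). Cyp2f2 was thus higher in each successive class of Scgb3a1 content, and none of these 5 intervals overlap. The share of cells with a Cyp2f2 UMI after thinning was 16.8%, 25.6%, 30.1%, 52.1% and 58.3% over the same classes, with some neighbouring intervals that overlap.

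Cbr2 went from 6.71 CPM (5.25 to 8.46) in cells with no Scgb3a1 UMI after thinning to 30.8 CPM (22.7 to 40.8) in cells with 20 or more. Aox3 went from 3.08 CPM (2.12 to 4.32) to 30.8 CPM (22.7 to 40.8) between the same classes. From the class of 1 to that of 2 to 4 neither rose, with Cbr2 at 12.5 and 12.2 CPM and Aox3 at 8.06 and 7.97 CPM. Median depth was 8591 UMIs in the class with no Scgb3a1 UMI after thinning and 8089 in the class with 20 or more. Before thinning the first of these classes held Scgb3a1 at 65.5 CPM. In the reverse direction, Scgb3a1 was at 1051 CPM in cells with no Cyp2f2 UMI after thinning, 3179 CPM with 1 Cyp2f2 UMI and 3524 CPM with 2 to 4 (3443 to 3606). The 14 cells with 5 to 19 Cyp2f2 UMIs had 3467 CPM (3145 to 3814), an interval that overlaps the class before.

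**Figure D4:**
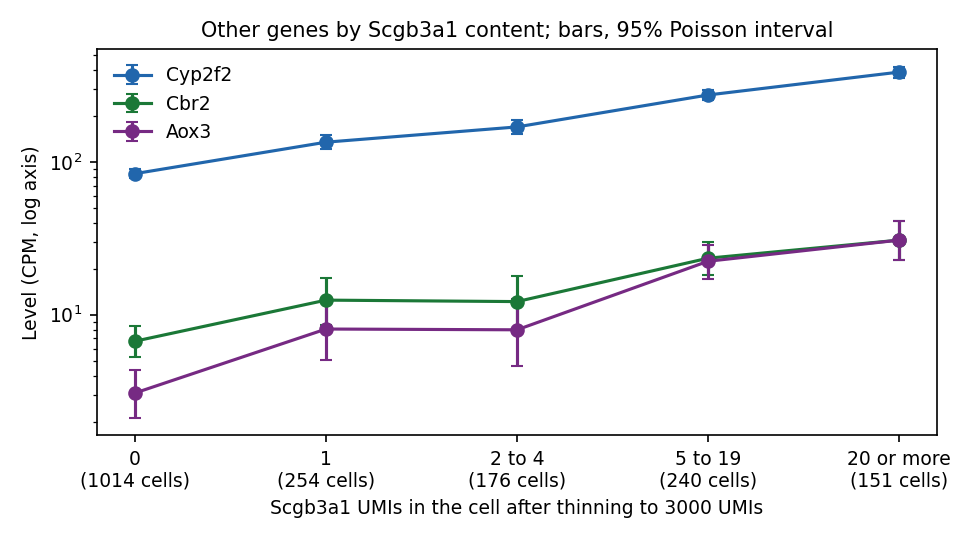
Level of Cyp2f2, Cbr2 and Aox3 (y axis, CPM on a log axis) in cells classed by their Scgb3a1 UMIs after thinning to 3000 UMIs (x axis, with the number of cells), with bars for the 95% Poisson interval. Cyp2f2 goes from 83.7 to 386 CPM, and Cbr2 and Aox3 both reach 30.8 CPM in the class of 20 or more.

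The matrix also counts 12 multiplexing tags, of which CMO301 or CMO302 was the highest in every kept cell. What these tags marked is not given in the sources used here, so they do not serve as replicates. Scgb3a1 was at 1626 CPM in the 1062 cells of CMO301 and 1702 CPM in the 830 cells of CMO302, a ratio of 1.05 (1.02 to 1.07). Cyp2f2 was at 153 and 147 CPM, a ratio of 0.961 (0.894 to 1.03), and Aox3 at 8.51 and 10.1 CPM, a ratio of 1.18 (0.876 to 1.59). Cbr2 differed by more, at 10.7 and 14.6 CPM, a ratio of 1.36 (1.05 to 1.76). Cells with both Scgb3a1 and Cyp2f2 numbered 176 against 121 if unrelated for CMO301, and 155 against 103 for CMO302.

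What else these cells express was read from the 376 cells with at least 2 of the 4 genes at 3000 UMIs, set against the 827 cells with none. These sets are the ends of a range and not cell types, and 632 cells with 1 gene lie between them. Of the 376 cells, 331 had both Scgb3a1 and Cyp2f2, and 301 had these 2 and neither Cbr2 nor Aox3. The comparison thus mostly describes cells with Scgb3a1 and Cyp2f2, and says little of Cbr2 or Aox3. Median depth was 8628 UMIs with and 8689 without, and the median mitochondrial share of UMIs was 4.42% with and 3.85% without. A gene is called here when its level differs at least 2-fold, and 9249 genes with at least 50 UMIs in the 2 sets were compared. Of these, 97 genes (1.05%) were at least 2-fold higher and 115 genes (1.24%) at least 2-fold lower in the cells with the genes. These shares over all genes are the background of the counts given for each list below. The cells with the genes lay mostly in clusters 1 and 2 (170 and 151 cells) and the cells without mostly in clusters 3, 4, 2 and 1 (263, 174, 162 and 159 cells). A ratio over all cells therefore also holds differences between clusters. Ratios within clusters are given below only for the 12 highest and 8 lowest genes, and not for the other genes of the lists.

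The 12 genes with the highest ratio, among those with a UMI in at least 10% of the cells with the members, began with the iron carrier transferrin. Trf was at 256 CPM with and 44.9 CPM without, a ratio of 5.70 (5.08 to 6.42). Khdc1a and Khdc1b, a pair of similar KH-domain genes between which UMIs may be divided, had ratios of 4.24 (3.85 to 4.67) and 4.94 (3.11 to 8.06). Tmem176a and Tmem176b, a pair of membrane proteins, were abundant, at 3507 and 2359 CPM with and 876 and 722 CPM without.

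The other genes of the 12 had varied roles. Cp, the copper-carrying ferroxidase ceruloplasmin, was 3.83 times as high (3.37 to 4.37), and Lbp, which binds bacterial lipopolysaccharide, 3.93 times (3.33 to 4.66). Anpep, a membrane aminopeptidase, was 4.65 times as high (2.88 to 7.70) and Muc4, a membrane mucin, 3.49 times (2.66 to 4.62). Slc2a12, a sugar transporter, had a ratio of 4.09 and the mitochondrial carrier Slc25a35 of 3.24. Nhs was at 16.8 CPM with and 4.20 CPM without.

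Clusters 1 and 2 hold many cells of both sets, so the ratios were also taken inside each. The 12 genes were chosen by their ratio over all cells, these among them, so the values within a cluster describe them and are no further support. They ran from 1.35 (Nhs) to 4.04 (Trf) within cluster 1 and from 0.948 (Khdc1b) to 7.14 (Trf) within cluster 2. Over all genes with at least 50 UMIs there, 0.577% of 6239 were at least 2-fold higher and 0.529% at least 2-fold lower within cluster 1. Within cluster 2 these shares were 0.898% and 0.996% of 4118 genes. In cluster 5, with 23 and 26 cells, the Trf ratio was 0.939, with an interval that holds 1 (0.678 to 1.31). By tag, the Trf ratio was 5.69 in CMO301 and 5.86 in CMO302, but other genes differed more. Khdc1a was at 3.32 and 6.38, Anpep at 3.82 and 6.54, Slc2a12 at 3.19 and 5.71, and Slc25a35 at 3.82 and 2.69. Of the 8 lower genes Ly6m differed most, at 0.119 and 0.0196, on 9 UMIs with the members in all. Setting the 25% of cells with the highest summed CPM of the members against the 25% with the lowest gave 13.5 for Trf and 6.61 for Nhs.

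The 8 genes at the low end were taken among those with a UMI in at least 10% of the cells without the members, and rarer genes such as Gkn3 and Muc5ac had lower ratios than most of them. Ly6m, of the Ly6 family of small surface proteins, was at 2.13 CPM with and 28.1 CPM without, a ratio of 0.0757 (0.0342 to 0.146), and within cluster 1 it was at 0.198 (0.0665 to 0.495). Its interval within cluster 2 holds 1 (0.00463 to 1.96). Psca, another small surface protein, was at 0.284 (0.242 to 0.332), and at 0.108 and 0.237 inside these clusters, but 2.23 within cluster 3. Klra4, named for a natural killer cell receptor, was at 0.214, Wincr1 at 0.142 and Gpr137b at 0.291, and for Gpr137b the intervals within both clusters hold 1 (0.231 to 1.13 and 0.0635 to 1.46). Ndrg1, a gene induced by low oxygen, was at 0.271 over all cells but at 0.661 within cluster 1 and 0.895 within cluster 2, and 2610528A11Rik was at 0.235, with 0.826 and 0.203 inside.

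Tff1, the trefoil peptide of gastric pit cells, depended on cluster 6. It was at 106 CPM with and 568 CPM without, a ratio of 0.187 (0.169 to 0.206), while cluster 6 had 4126 CPM and the other clusters between 68.2 and 148 CPM. A single cell held 2441 of its 6172 UMIs. Without cluster 6 the ratio was 0.684.

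**Figure D5:**
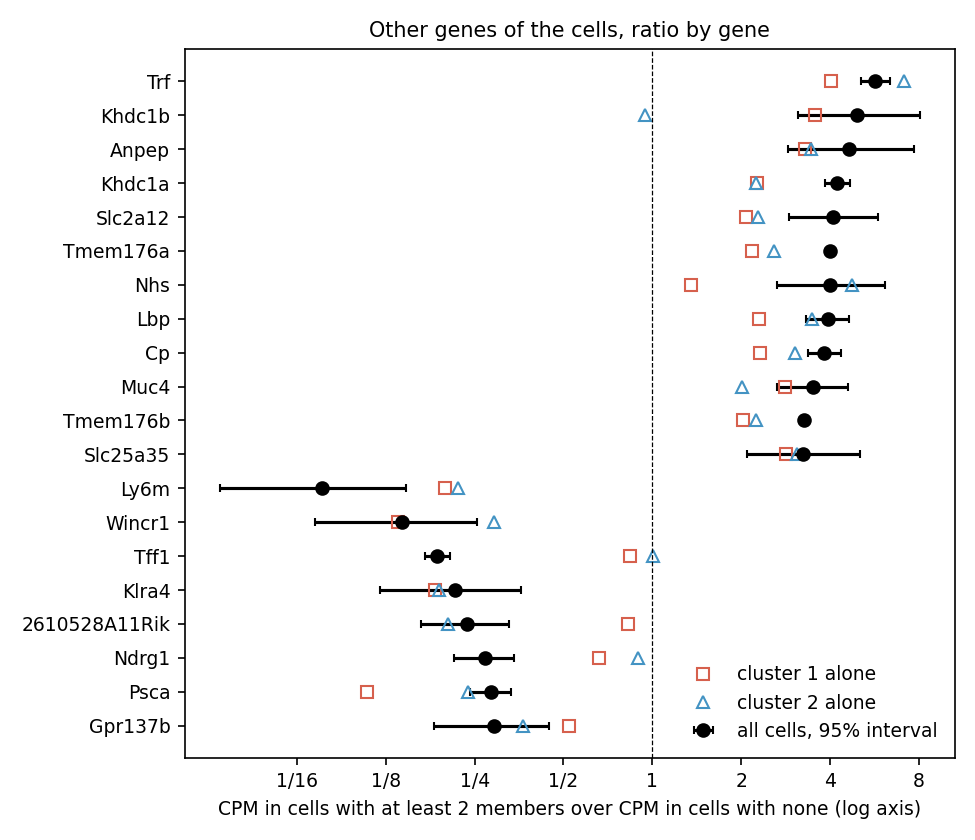
Ratio of CPM in cells with at least 2 of the 4 genes to CPM in cells with none (x axis, log axis) for the 12 genes with the highest and the 8 with the lowest ratio (y axis) among those with a UMI in at least 10% of cells of the higher set, as black points with 95% intervals, with open squares for cluster 1 alone and open triangles for cluster 2 alone. The upper 12 stay above 2 within both clusters except Nhs in cluster 1 and Khdc1b in cluster 2, and Tff1 and Ndrg1 come nearer to 1.

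Other genes of airway club cells were partly absent and partly higher. Of 15 genes on that list, 4 had no UMI (Scgb3a2, Cyp2a5, Bpifa1 and Cckar) and 3 had enough UMIs to compare, with a median log2 ratio of 0.69. Hp, the haemoglobin-binding protein haptoglobin, was at 111 CPM with and 44.0 CPM without, a ratio of 2.53 (2.20 to 2.90), and was the 1 gene past 2-fold. Sftpd, a lectin of the surfactant, was abundant at 350 CPM over all cells, with a ratio of 1.62 (1.52 to 1.72). Aldh1a1, which makes retinoic acid, had a ratio of 1.40 (0.982 to 1.98), and of 2.19 (1.47 to 3.29) without cluster 6, where 1 cell held 11 of its 55 UMIs with and the ratio was 1.77 less that cell. Below the minimum of 50 UMIs in the 2 sets, Cyp2b10 had a ratio of 2.43 (1.23 to 4.84), Lypd2 of 2.17 (1.19 to 3.97) and Ces1d, a carboxylesterase, of 4.87 (1.11 to 29.2). The claudin Cldn10 had 11 UMIs in all, none of them in the cells without. Fmo2, at 1.36 (0.660 to 2.72), and the airway mucin Muc5b, at 1.04 (0.169 to 4.88), had intervals that hold 1. Nkx2-1, the transcription factor that specifies lung, had no UMI.

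Ciliated cells are the other main class of the airway lining. Their regulator Foxj1 had 21 UMIs, and Ccdc153 and Tekt1 had none. Tppp3 had a ratio of 2.40 (1.38 to 4.17) at 5.62 CPM over all cells, and Rsph1 of 1.68 (0.952 to 2.94).

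Other enzymes of the first phase of detoxification were centred near the median of all genes. Of 34 genes, 14 were compared, 1 was at least 2-fold higher and 0 were at least 2-fold lower, and the median log2 ratio was -0.01, as it was over all 9249 genes. Without cluster 6 the median of the list was 0.13. Por, the reductase that supplies electrons to cytochrome P450s, was at 307 CPM with and 278 CPM without, a ratio of 1.11 (1.03 to 1.18). Adh7, an alcohol dehydrogenase of the upper digestive tract, was the gene past 2-fold, at 2.01 (1.47 to 2.76), and at 3.64 (2.48 to 5.40) without cluster 6. Adh1 had 20 UMIs with and 19 without there, under the minimum. Aldh3a1, with 54.4% of its UMIs in cluster 6, went from 0.699 (0.514 to 0.939) to 1.59 (1.08 to 2.33) without that cluster. Cyb5a, an electron donor of the P450s and the next in level to Por, was at 1.01 (0.929 to 1.09), Cyb5r3, its reductase, at 1.38 (1.25 to 1.52), and Aldh2, the mitochondrial aldehyde dehydrogenase, at 1.41 (1.26 to 1.58). Cyp2s1, the next most abundant Cyp2 gene, was lower in the cells with the 4 genes, at 0.596 (0.460 to 0.764), and so was the epoxide hydrolase Ephx1, at 0.660 (0.540 to 0.802). Under the minimum of UMIs, and so not among the genes compared, the P450 genes Cyp4b1 and Cyp1b1 were higher. Their ratios were 2.58 (1.40 to 4.83) and 2.41 (1.25 to 4.72). The intervals of the other genes of the list under the minimum hold 1.

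Of 22 other carbonyl and short-chain reductases, 17 were compared, with 0 past 2-fold higher and 1 past 2-fold lower (Akr1c12, at 0.450, with 8 and 24 UMIs left without cluster 6), and the median log2 ratio was 0.05. Dcxr had the highest ratio of the 17, 1.95 (1.75 to 2.17), which became 2.02 (1.81 to 2.25) without cluster 6. The paralogs Cbr1 and Cbr3 were lower in these cells, at 0.839 (0.768 to 0.915) and 0.742 (0.634 to 0.867), and at 0.887 and 0.964 without cluster 6, which held 21.4% of the Cbr3 UMIs. The abundant aldehyde reductase Akr1a1 was at 1.40 (1.29 to 1.51) and Akr1b8 at 0.979 (0.853 to 1.12). As a group these reductases were thus close to the median of all genes, and without cluster 6 their median was 0.16.

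The molybdenum enzymes and their cofactor genes were measured because Aox3 needs that cofactor, although most of the 376 cells had no Aox3 UMI at 3000 UMIs. Of 12 genes, 10 were in the matrix and 4 were compared, with 0 past 2-fold either way and a median log2 ratio of -0.06. Xdh, the related xanthine dehydrogenase, had a ratio of 1.69 (1.31 to 2.19), and Mocs2, of cofactor synthesis, of 1.06 (0.863 to 1.30). Gphn, which completes the cofactor, was at 0.863 (0.628 to 1.17) and the sulphite oxidase Suox at 0.712 (0.450 to 1.10), and both intervals hold 1.

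The conjugating enzymes of the second phase of detoxification held genes on both sides. Of 26 genes, 18 were compared, 0 were at least 2-fold higher and 2 at least 2-fold lower, and the median log2 ratio was 0.19. The glutathione transferases Gstm1 and Gstm2 were near the limit, at 1.98 (1.85 to 2.13) and 1.98 (1.82 to 2.16), and Gsta3 was at 1.89 (1.73 to 2.06). Gsta1, at 0.353 (0.308 to 0.404), and Sult1d1, at 0.371 (0.151 to 0.795), were the 2 lower genes. Cluster 6 held 75.6% of the Gsta1 UMIs, and without it the Gsta1 ratio was 1.13, while Sult1d1 was left with 8 UMIs with and 37 without, under the minimum. Without it Gstm1, Gstm2 and Gsta3 were at 2.12 (1.97 to 2.28), 2.02 (1.85 to 2.20) and 2.29 (2.08 to 2.51), so that 3 genes were just past 2-fold higher. Over all genes compared without cluster 6, 124 of 9057 were at least 2-fold higher. Among the most abundant of the list, Mgst1 was at 1.25 (1.19 to 1.31), Gsta4 at 1.37 (1.31 to 1.44) and Gsto1 at 1.03 (0.983 to 1.08). The transferases of a class resemble each other closely, which leaves the split of UMIs between them uncertain.

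No sensor of foreign compounds that was compared passed 2-fold higher. Of 12 genes, 7 were compared and the median log2 ratio was -0.20, with 1 gene past 2-fold lower, the fatty acid sensor Pparg, at 0.405 (0.272 to 0.588). Ahr, the sensor of aromatic compounds, was at 0.958 (0.791 to 1.16), and Nfe2l2, the regulator of antioxidant genes, at 0.928 (0.849 to 1.01). The glucocorticoid receptor Nr3c1 was at 0.728 (0.589 to 0.896) and Keap1, the partner that holds Nfe2l2 down, at 1.02 (0.792 to 1.30). Nr1i2 and Nr1i3, the xenobiotic receptors of liver, had 1 and 2 UMIs.

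Of 24 endoderm and secretory transcription factors, 13 were compared, 0 were past 2-fold either way and the median log2 ratio was 0.23. Ehf, an ETS factor of epithelia, had a ratio of 1.85 (1.64 to 2.10), Creb3l1, a regulator of secretory capacity, of 1.69 (1.30 to 2.20), and Sox17 of 1.48 (1.25 to 1.75). Foxa1 was at 1.24 (0.976 to 1.56). The gastric and foregut factor Sox2 was at 1.31 (1.09 to 1.56). The 4 most abundant factors of the list were near 1, with Klf4 at 0.970 (0.914 to 1.03), Klf5 at 1.06 (0.987 to 1.14), Cebpb at 1.07 (0.978 to 1.16) and Elf3 at 0.918 (0.810 to 1.04).

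Mucosal secretion genes were mixed. Of 19 genes, 12 were compared, with 3 past 2-fold higher and 2 past 2-fold lower, against 1.05% and 1.24% of all 9249 genes. The median log2 ratio was 0.17. Besides Muc4, Ltf, the iron-binding lactotransferrin, was higher, at 508 CPM with and 219 CPM without, a ratio of 2.32 (2.18 to 2.47). By cluster, Ltf was at 433 and 488 CPM in clusters 1 and 2 and at 82.05 and 113 CPM in clusters 3 and 4. The remaining higher gene was Lyz2, whose 80 UMIs came from 9 cells, 53 of them from 1 cell, so it says nothing of the set. Pigr, the carrier of secreted antibodies, was at 0.487 (0.341 to 0.682) over all cells but at 1.55 (1.01 to 2.37) without cluster 6, which held 59.1% of its UMIs. Agr2, which folds mucins, went from 1.02 to 3.09 (2.43 to 3.95) without that cluster, and the median of the list to 0.56. Slpi, a protease inhibitor, was at 0.605 (0.406 to 0.884) and Dmbt1 at 0.824 (0.624 to 1.08). Lcn2, an iron-trapping defence protein, was at 1.51 (1.37 to 1.66) and the surface mucin Muc1 at 1.19 (1.09 to 1.31). Reg3g, a leading gene of cluster 6, had no UMI with, which allows up to 0.710 CPM, and 8.05 CPM without. Wfdc2, a secreted protease inhibitor, was the most abundant, at 5507 CPM with and 4194 CPM without.

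Among gastric lineage genes Aqp5 was higher and several pit and neck cell genes were lower, most of them by less once cluster 6 was left out. Of 4 pit cell genes, 3 were past 2-fold lower (Tff1, Gkn2 and Muc5ac) and Gkn1 was at 1.02 (0.907 to 1.15). Of 4 mucous neck genes, Aqp5, a water channel, was at 1555 CPM with and 894 CPM without, a ratio of 1.74 (1.68 to 1.80), and Gkn3 was at 0.113 (0.0624 to 0.190). The chief cell gene Pgc was at 0.388 (0.158 to 0.835). Cluster 6 held 71.7% of the Gkn3 UMIs, 70.4% of Pgc, 58.8% of Muc5ac and 51.3% of Gkn2, and it gave 2 of the 376 cells with the genes and 43 of the 827 without. Without cluster 6 Muc5ac fell under the minimum of 50 UMIs, with 5 UMIs with and 21 without, and its ratio of 0.466 had an interval that holds 1 (0.137 to 1.27). The ratio was then 0.684 for Tff1, 0.752 for Gkn3, 0.868 for Gkn2 and 0.939 for Tff2, which was at 0.742 (0.532 to 1.02) with it. Pgc had 8 UMIs with and 4 without outside cluster 6, too few to compare. Gkn1 was at 2.91 there, but 1 cell of cluster 3 held 295 of its 405 UMIs with, and less that cell the ratio was 0.795 (0.631 to 0.996). Aqp5 stayed at 1.67.

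Of the goblet and intestinal list, Lgals4, an intestinal galectin, was past 2-fold lower, at 73.6 CPM over all cells and a ratio of 0.495 (0.421 to 0.581), which was 0.633 without cluster 6. The brush border gene Vil1 was at 0.961 (0.665 to 1.37). Of the squamous and basal list only Krt4, a keratin at 464 CPM, had enough UMIs to compare, with a ratio of 1.14 (1.08 to 1.21). Among the keratins of simple epithelia Krt18 was at 0.844 (0.820 to 0.868) and Krt19 at 0.714 (0.677 to 0.753).

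Genes of proliferation, stress and regeneration showed no change past 2-fold. The median log2 ratio was -0.20 over 7 proliferation genes, and without cluster 6 it was 0.18. It was 0.07 over 12 stress genes and 0.04 over 6 fetal or regenerative genes, and 0.01 and 0.28 without cluster 6. Of the fetal or regenerative genes Anxa1 had the highest ratio, 1.49 (1.43 to 1.56). The dividing-cell gene Mki67 was at 0.667 (0.512 to 0.862), and at 0.850 without cluster 6. Top2a was at 1.12 (0.966 to 1.30), and at 1.39 (1.18 to 1.63) without cluster 6. Cdk1 was then at 1.33 (1.03 to 1.71), while Ccnb1 and Mcm6 were at 0.887 and 0.918, with intervals that hold 1. Of the early response genes Fos was at 1.09 (1.06 to 1.11) and Atf3 at 1.17 (1.13 to 1.21), and of the fetal or regenerative genes Ly6a was at 1.01 (0.985 to 1.03) and Clu at 1.06 (1.03 to 1.08). Of 12 non-epithelial markers, 7 had no UMI in the 2 sets, and Cd68, a lysosomal protein, was the 1 gene compared, at 0.374 (0.223 to 0.599). The summed level of the 12 markers was 5.68 CPM with and 13.9 CPM without.

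The genes with the most similar pattern were found by Pearson correlation of log-scaled counts over the 1892 cells, among 8585 other genes with a UMI in at least 5% of cells. The cells share 1 library and differ in depth, so these values are a description. For Scgb3a1 the nearest were Tmem176a (r = 0.518), Tmem176b (0.482), Trf (0.441), Cyp2f2 (0.441) and Khdc1a (0.356). For Cyp2f2 they were Tmem176a (0.532), Tmem176b (0.516), Scgb3a1 (0.441), Khdc1a (0.336) and Cp (0.333). The 2 abundant genes thus had the same pair of nearest genes and had each other among the first 5.

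Correlations of the sparse genes were weak and are given only as values. The highest for Aox3 were with Trf (0.278), Scgb3a1 (0.251), Cyp2f2 (0.217), Tmem176a (0.210) and Cp (0.202). For Cbr2 they were with Dcxr (0.213), its neighbour on chromosome 11, then Cyp2f2 (0.174), Scgb3a1 (0.172), Tmem176a (0.158) and the glutathione peroxidase Gpx2 (0.155).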

How the data were processed

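The deposited matrix holds whole-number UMI counts per gene and barcode, which the authors did not normalize. It was written by Cell Ranger 6.1.2, per the file headers, and reads were mapped to GRCm38, per the submitters' processing notes. The annotation behind the counts is not given in the sources used here. Gene positions are from GENCODE M21, in which 32235 of 32285 gene identifiers were found. The 12 multiplexing tags were kept out of all totals.

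Barcodes needed 500 detected genes and no more than 20% mitochondrial UMIs. Scrublet in scanpy 1.11.5 marked 12 cells (0.634%) as doublets, at a score threshold of 0.134. They were kept, and left out as an alternative. Thinning drew 3000 UMIs per cell without replacement. Clusters came from 2000 variable genes without the 4 genes described, and without cell cycle, sex-linked and mitochondrial genes (30 components, 15 neighbours, Leiden resolution 0.6, seed 0). Intervals are exact Poisson, Clopper-Pearson or conditional binomial, at 95%, and cover counting error only. No p-value was computed. Log2 ratios have 1 CPM added to both sides.

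The members and gene lists were chosen with earlier results of these data known. Named genes are the 4 members, their families, the 12 highest and 8 lowest ratios, the 5 nearest correlations per member, the 3 leading genes of each cluster, and of each list those past 2-fold and up to 4 with the highest CPM, fewer in lists at low level and in the marker and stress lists. Further list genes were named after their values were seen. Cells with at least 3 of the genes numbered 31, under the minimum of 50, so at least 2 genes were required, as the rule provided. Thinning, the sharing ratio and the comparison of 2 sets with its interval were tested on simulated cells that varied within a set by counting alone. Clustering, doublet calling, correlation and the motif search were not tested in this way.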

Additional observations from a re-analysis of the deposited data

Results flagged for a closer look

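The 99 barcodes outside the cell filter, which the comparisons do not use, also held UMIs of these genes. Scgb3a1 was at 481 CPM there (364 to 623), on 57 UMIs, with a UMI in 32.3% of barcodes. Cyp2f2 was at 143 CPM (83.5 to 230), on 17 UMIs. Both are above the limit that a count of 0 allows. In the 1892 kept cells the levels were 1660 and 151 CPM, so Scgb3a1 was lower in the removed barcodes and Cyp2f2 did not differ beyond counting error. The level of Scgb3a1 was 3.35 times that of Cyp2f2 in the removed barcodes and 11.0 times in the kept cells. Their median depth was 901 UMIs. Cbr2 had 2 UMIs there and Aox3 none. The part of free RNA in these values was not tested.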

How the results depend on the processing

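No paired analysis was possible because the design holds a single library and no pairs. Over 34 results, 114 alternative values were computed, of which 76 stayed within the interval of the main value (counts, within 1.5 times). Thinning to 5000 UMIs gave shares of 53.9%, 37.3%, 4.46% and 4.15% for Scgb3a1, Cyp2f2, Cbr2 and Aox3, and no thinning gave 63.7%, 48.0%, 7.29% and 6.61%, as deeper cells must. Sharing of Scgb3a1 with Cyp2f2 was 1.32 at 5000 UMIs, 1.22 with no thinning, 1.72 with at least 2 Scgb3a1 UMIs, and 1.21, 1.02 and 1.85 within clusters 1, 5 and 6. A mean over cells gave 1715 CPM for Scgb3a1. Without cluster 6, Scgb3a1 was at 1726 CPM, Cyp2f2 at 157 CPM, and the proliferation median went to 0.18. Several list genes then turned from below 1 to above it. Among them were Pgc, to 3.91 (8 and 4 UMIs, under the minimum of 50), Gsta1, to 1.13 (0.922 to 1.38), and Pigr, to 1.55 (1.01 to 2.37). Aldh3a1 went from 0.699 (0.514 to 0.939) to 1.59 (1.08 to 2.33). The medians of the first-phase, reductase and fetal or regenerative lists went to 0.13, 0.16 and 0.28. Those of the sensor, epithelial and stress lists were lower than before, at -0.23, -0.09 and 0.01. Aldh1a1, Dcxr, Gsta3, Gstm1, Gstm2 and Agr2 passed 2-fold higher, at 2.19, 2.02, 2.29, 2.12, 2.02 and 3.09, and less their highest cell Aldh1a1, Dcxr and Gstm2 were at 1.77, 1.99 and 1.98. Gkn1 was at 2.91, and at 0.795 less 1 cell. Genes at least 2-fold higher and lower numbered 97 and 115 of 9249 in the main comparison. They numbered 233 and 247 of 10923 with a minimum of 20 UMIs, and 400 and 895 of 8362 with at least 3 members (31 cells). They were 36 and 33 of 6239 within cluster 1, 37 and 41 of 4118 within cluster 2, and 124 and 101 of 9057 without cluster 6. The highest cluster against the other cells gave 5.03, 3.27, 3.48 and 5.16 for Scgb3a1, Cyp2f2, Cbr2 and Aox3 at resolution 0.3, against 2.61, 1.74, 2.13 and 2.63 in the clusters used. At resolution 1.0 it gave 4.60, 2.87, 3.37 and 4.92, and with the 4 genes open to the clustering 4.18, 3.65, 4.66 and 7.04. The causes of these shifts were not tested. The alternative of at least 2 members against none was the comparison used, so it gave no further value. Within-cluster and within-tag values, the Scgb3a1 classes, the set of at least 3 members and the list genes without cluster 6 were alternatives added once the values were known. Depth limits Cbr2 and Aox3, which had 251 and 185 UMIs.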

Other observations

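Trf, Cp and Lbp were 3 of the 12 genes with the highest ratio, and their levels by cluster are given here because they were seen to be high, with no list or test behind the choice. Trf was at 187 CPM in cluster 2, 151 CPM in cluster 1 and 202 CPM in cluster 5, against 29.7 and 21.3 CPM in clusters 3 and 4, and at 98.7 CPM in cluster 6, where Scgb3a1 was low. Cp was at 117, 92.1 and 114 CPM in clusters 1, 2 and 5, at 15.4 and 18.5 CPM in clusters 3 and 4, and at 138 CPM in cluster 6. Lbp was at 67.2, 81.5 and 51.0 CPM in clusters 1, 2 and 5 and at 17.4, 25.6 and 36.5 CPM in clusters 3, 4 and 6. With cells chosen by at least 5 Scgb3a1 UMIs against none, in place of 2 of the 4 genes, Trf had a ratio of 6.42, Lbp of 3.32 and Cp of 3.0, against 5.70, 3.93 and 3.83. With the highest against the lowest 25% of cells by summed CPM of the members they were 13.5, 4.60 and 4.26.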
